A study of Mus musculus with 48 samples.

Results

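The genes described here encode 40 factors of the complement and coagulation systems of the mouse. They were chosen by name: each is a row of the count tables whose Ensembl identifier carries a listed gene symbol. All 40 symbols were found among the 56748 identifiers of the tables. By role they comprise 7 recognition molecules and their proteases (C1qa, C1qb, C1qc, Mbl1, Mbl2, Masp1, Masp2), 4 central components (C2, C3, C4b, Hc) and 5 terminal components (C7, C8a, C8b, C8g, C9). A further 2 belong to the alternative pathway (Cfb, Cfp), 2 are regulators (Cfi, Cd55) and 2 are receptors for complement peptides (C3ar1, C5ar1). The coagulation genes are 5 vitamin K-dependent proteases (F2, F7, F9, F10, Proc), 4 genes of the contact system (F11, F12, Klkb1, Kng1), the initiator F3 with the cofactor F5, 5 genes of fibrin formation (Fga, Fgb, Fgg, F13a1, F13b), Plg and Vwf.

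Complement is a cascade of plasma proteins that tags particles for uptake, releases the peptides C3a and C5a, and can assemble a membrane pore. Coagulation is a parallel cascade in which proteases activate each other until thrombin converts fibrinogen to fibrin, which plasmin later dissolves. Most plasma factors of both systems are made by hepatocytes, whereas C1q, properdin and the receptors for C3a and C5a are products of macrophages and other myeloid cells, von Willebrand factor is made by endothelial cells, and adipose tissue makes complement C3 and factor D.

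RNA was sequenced from 3 tissues of male littermate mice: the liver, brown fat (BAT) and epididymal white fat (eWAT). In hepAGT-/- mice (KO) Agt had been deleted in the hepatocytes; it encodes angiotensinogen, from which angiotensin is cut, and hepAGT+/+ littermates (WT) were the controls. Every mouse, controls included, ate a Western diet of 21% milk fat and 0.2% cholesterol over 12 weeks under 14 h of light and 10 h of dark. The mice were housed either at 20 to 22 °C, here called RT for room temperature, or at 30 °C, here called TN for thermoneutrality, where little heat production is needed. Each tissue therefore had 4 groups (WT at RT, KO at RT, WT at TN and KO at TN) of 4 libraries, or 48 libraries in 12 groups. The labels name neither the promoter that drove the deletion nor the ages, and they call the samples biological replicates, with no statement of pooling.

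Libraries held 23.7 to 36.5 megacounts in liver, 25.3 to 39.4 megacounts in BAT and 28.7 to 43.7 megacounts in eWAT. Levels are counts per megacount (CPM), scaled between libraries by the trimmed mean of M values. Differences are log2 changes from edgeR, and a gene was called when its quasi-likelihood p was under 0.05 after Benjamini-Hochberg adjustment across every gene that passed the filter in that tissue. At RT the liver level of Agt was 368 ± 75.4 CPM (SD, n = 4) for WT against 167 ± 26.7 CPM for KO. At TN these levels were 409 ± 86.4 CPM and 167 ± 33.8 CPM. The KO livers lay below the WT livers without overlap at both temperatures. One eWAT library, WT RT replicate 18, stood apart with a summed level of 760 CPM over epididymis markers, against at most 13.1 CPM in every other eWAT library. In BAT the summed skeletal muscle markers ran from 1.19 to 6294 CPM. All tissues are bulk samples, in which fewer cells of a type and less RNA per cell cannot be told apart.

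Several members sit in gene clusters. The 3 fibrinogen genes lie side by side on chromosome 3, and the 3 C1q genes lie side by side on chromosome 4. The sequences below are the 250 bases before the RefSeq start (GRCm38.p6), written 5′ to 3′ on the gene's own strand. They are shown because the C1q genes and both peptide receptors gave the fat results described later, while the fibrinogen genes were the highest members in liver per kilobase. Capitals mark GAGGAA, the core of sites for ETS factors such as PU.1, in the C1q and receptor sequences, or the same letters read on the other strand (TTCCTC). In the fibrinogen sequences capitals mark GTTAAT, part of the site of the liver factor HNF1, or its reverse complement ATTAAC.
C1qb: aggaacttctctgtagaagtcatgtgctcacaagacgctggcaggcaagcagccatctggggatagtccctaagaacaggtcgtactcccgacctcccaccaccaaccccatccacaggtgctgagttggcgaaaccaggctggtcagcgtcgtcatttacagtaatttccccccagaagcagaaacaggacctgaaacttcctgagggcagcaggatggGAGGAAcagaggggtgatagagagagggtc
C1qc: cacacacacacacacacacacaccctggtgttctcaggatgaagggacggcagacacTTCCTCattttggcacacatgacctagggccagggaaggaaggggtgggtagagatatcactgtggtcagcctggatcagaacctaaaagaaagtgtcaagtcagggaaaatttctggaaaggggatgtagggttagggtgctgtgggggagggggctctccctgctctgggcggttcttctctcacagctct
C3ar1: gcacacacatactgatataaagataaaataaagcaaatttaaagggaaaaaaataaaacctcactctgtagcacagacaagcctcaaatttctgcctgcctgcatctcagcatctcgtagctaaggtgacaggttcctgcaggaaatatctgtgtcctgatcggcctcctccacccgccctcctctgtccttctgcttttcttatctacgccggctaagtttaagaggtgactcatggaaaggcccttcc
C5ar1: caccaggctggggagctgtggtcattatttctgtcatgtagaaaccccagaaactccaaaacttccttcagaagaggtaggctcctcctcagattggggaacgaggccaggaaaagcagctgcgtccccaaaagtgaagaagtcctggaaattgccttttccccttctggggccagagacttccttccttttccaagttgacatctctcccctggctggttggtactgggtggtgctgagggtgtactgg
Fga: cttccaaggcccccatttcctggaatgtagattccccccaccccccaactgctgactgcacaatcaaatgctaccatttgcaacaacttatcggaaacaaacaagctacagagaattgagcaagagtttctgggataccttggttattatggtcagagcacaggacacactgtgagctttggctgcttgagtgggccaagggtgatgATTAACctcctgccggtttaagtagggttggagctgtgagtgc
Fgb: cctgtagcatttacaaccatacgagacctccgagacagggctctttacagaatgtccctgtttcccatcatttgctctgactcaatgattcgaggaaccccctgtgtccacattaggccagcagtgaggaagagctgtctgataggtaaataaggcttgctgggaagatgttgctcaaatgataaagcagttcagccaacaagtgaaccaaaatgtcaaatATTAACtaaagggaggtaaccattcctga
Fgg: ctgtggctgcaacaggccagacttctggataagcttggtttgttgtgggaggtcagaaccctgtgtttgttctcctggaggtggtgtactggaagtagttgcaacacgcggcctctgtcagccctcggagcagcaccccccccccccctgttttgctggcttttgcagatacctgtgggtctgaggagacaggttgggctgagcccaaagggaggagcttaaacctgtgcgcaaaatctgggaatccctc
The windows lie at chr4:136886201-136886450, minus strand, at chr4:136892915-136893164, minus strand, at chr6:122856158-122856407, minus strand, at chr7:16259339-16259588, minus strand, at chr3:83025903-83026152, plus strand, at chr3:83049864-83050113, minus strand, and at chr3:83007474-83007723, plus strand. Both motifs were searched on both strands in 300 bases, 250 before and 50 after the start, and no match of one motif overlapped a match of the other in the printed windows. GAGGAA was present once each in C1qb and C1qc and absent from the windows of C3ar1 and C5ar1 (Fgb also holds it, left in lower case), and GTTAAT was present once each in Fga and Fgb and absent from Fgg. Of the 30 members with a promoter in the table, 6 held GAGGAA and 10 held GTTAAT, against 28.3% and 7.1% of 32817 promoters of that length. GTTAAT was in 7 of the 20 members later called liver-type and in 3 of the other 10, and GAGGAA was in 2 and 4. A match is a description of letters, not of binding.

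Liver was the main site of expression. Per kilobase of exon, which allows genes to be compared, the fibrinogen chains led with 1242 CPM per kb for Fgg, 977 for Fga and 777 for Fgb. Next came C3, the hub of complement, at 637 CPM per kb, Kng1, which encodes kininogen, at 557, and Plg, which encodes plasminogen, at 500. The recognition lectin Mbl2 (281 CPM per kb) and prothrombin F2 (275 CPM per kb) followed. At the other end stood F13a1, the catalytic chain of factor XIII, at 0.0474 CPM per kb, C7 at 0.381 and C5ar1 at 0.45. Among livers Fgb was at 2958 ± 451 CPM (SD, n = 16), Fgg at 2599 ± 410 CPM and Fga, with the widest spread of the 3, at 2941 ± 643 CPM. The neighbours Mbl2 and F2 differed per kilobase by less than the spread among livers, which before division by length was 306 ± 59.1 CPM for Mbl2 and 1264 ± 140 CPM for F2.

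Both fats differed from liver in almost every member. Between eWAT and liver all 40 members were called, 11 higher and 29 lower in eWAT, where 73.8% of 21910 genes were called (38.3% higher, 35.5% lower). Between BAT and liver 39 were called, 5 higher and 34 lower in BAT, against 68.6% of all genes (37% higher, 31.6% lower). The exception was C3ar1, the C3a receptor, which averaged 4.12 CPM in BAT and 3.14 CPM in liver (log2 difference 0.003, SE 0.191, in the fit over all libraries). CPM levels were scaled within each tissue, so levels and shares of liver are not on a common scale across tissues. The log2 differences between tissues come from the fit over all libraries and can differ from the ratio of these levels. The members' median log2 difference was -6.98 for eWAT minus liver and -7.63 for BAT minus liver, beside 0.05 and 0.09 over all genes.

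A set of 25 members had both fat means under 5% of the liver mean, and they are called liver-type here. This division was made after the levels were seen and is a description. The highest of them was Masp1 in eWAT, at 4.47% of liver, and the lowest of the other 15 in eWAT was C3, at 26.9% of liver. BAT alone did not separate the classes so clearly. There C4b and Cfb, both among the other 15, stood at 3.47% and 3.83% of liver, and the liver-type C8g at 2.48%. The 15 fat-expressed members were C1qa, C1qb, C1qc, C2, C3, C4b, C7, Cfb, Cfp, Cd55, C3ar1, C5ar1, F3, F13a1 and Vwf. Among them C4b, a central component of the classical pathway, averaged 1266 ± 625 CPM (SD, n = 16) in eWAT and 1360 ± 253 CPM in liver but 47.1 ± 36.7 CPM in BAT. In the fit over all libraries C4b was called lower in eWAT than in liver (log2 difference -0.78, SE 0.194, adjusted p 4.9e-04, edgeR). C3 averaged 880 ± 367 CPM in eWAT, 291 ± 95.5 CPM in BAT and 3277 ± 810 CPM in liver. The C1q genes were higher in eWAT than in liver, with C1qa at 151 ± 49.8 CPM against 43.3 ± 21.2 CPM (log2 difference 1.29, SE 0.13, adjusted p 9.94e-12).

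The most adipose-weighted member was F13a1, at 155 ± 38.5 CPM (SD, n = 16) in eWAT, 11.7 ± 7.56 CPM in BAT and 0.319 ± 0.453 CPM in liver, where 3 of 16 libraries had no count. Its log2 difference between eWAT and liver was 8.42 (SE 0.38, adjusted p 8.73e-22). F13b, the carrier chain of the same enzyme, went the other way, at 213 ± 16.9 CPM in liver and 2.49 ± 3.91 CPM in eWAT. C7, a pore component, averaged 46.5 ± 31.5 CPM in eWAT and 1.02 ± 1.04 CPM in liver, whereas the other 4 terminal genes were all liver-type. Within fat, 20 members were called between eWAT and BAT, 18 higher and 2 lower in eWAT, against 60.3% of all genes (31.1% higher, 29.2% lower). The 2 lower genes were F3, tissue factor, at 56.5 ± 13.9 CPM in BAT and 29.0 ± 8.34 CPM in eWAT (log2 difference -1.37, SE 0.14, adjusted p 1.03e-11), and C8g, at 8.63 ± 3.09 and 6.58 ± 4.83 CPM (log2 difference -0.91, SE 0.205, adjusted p 2.15e-04).

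**Figure D1:**
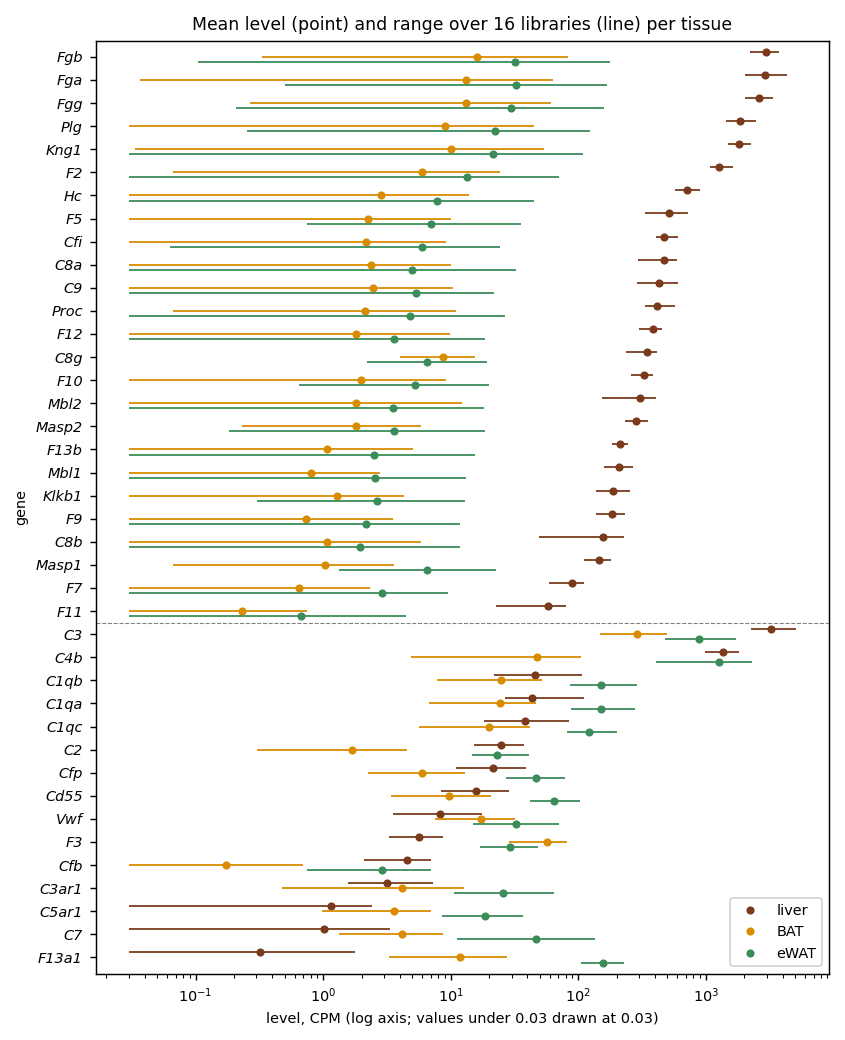
Level of each of the 40 genes in CPM, scaled within each tissue, on a log axis. Points are means and lines are ranges over the 16 libraries of each tissue. The 25 genes above the dashed line have both fat means under 5% of liver, and their fat ranges run over far more of the axis than their liver ranges.

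The liver-type members varied in fat together with albumin (Alb), an abundant transcript of hepatocytes. Alb ran from 2.73 to 1700 CPM over the 16 BAT libraries and from 22.3 to 3109 CPM over the 16 eWAT libraries. In the eWAT library with the most Alb, KO RT replicate 16, Alb stood at 5.95% of its liver mean and the liver-type members at a median of 6.86% of theirs. In the BAT library with the least, KO RT replicate 19, both shares were at 0.00523% and 0.0047%, and 10 of the 25 members had no count. Over the 32 fat libraries the ratio of the members' median share to the Alb share ran from 0.0827 to 1.63. By gene, the median of that ratio lay between 0.5 and 2 for 24 of 25 members in BAT and for 21 of 25 in eWAT. Whether this RNA came from liver tissue or liver RNA carried into the fat samples was not tested.

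A few liver-type members lay away from the Alb share. C8g, the lipocalin chain of the C8 complex, had a median ratio of 8.85 in BAT and 2.3 in eWAT, and it stayed at 8.87 CPM in the BAT library with the least Alb. Masp1, a protease of the lectin pathway, had a ratio of 8.04 in eWAT, and F7, the partner of tissue factor, had a ratio of 4.07 there. F11 lay below, at 0.258. In WT TN replicate 7 of eWAT, where Alb was at 0.0428% of liver and 12 members had no count, F7 was still at 7.84% of liver.

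**Figure D2:**
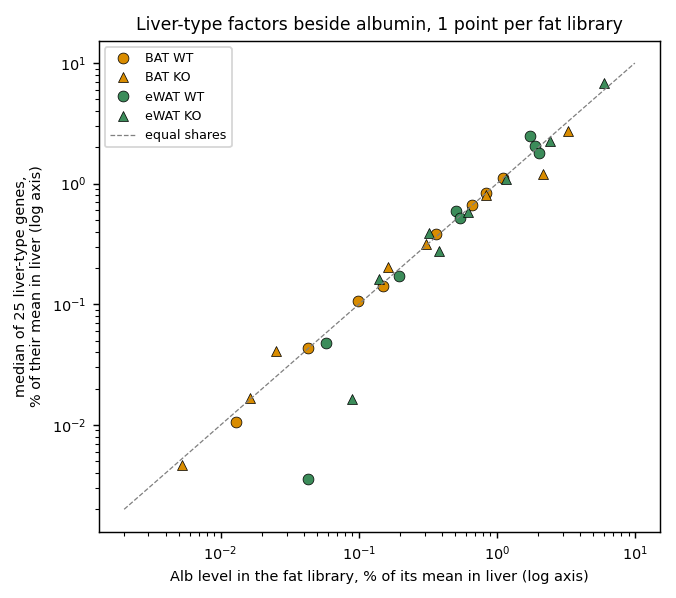
Each point is a fat library, with the Alb level as a percentage of the liver mean (horizontal, log axis) and the median of the 25 liver-type genes as a percentage of their liver means (vertical, log axis). Points follow the dashed line of equal shares from 0.00523% to 5.95%, and 2 eWAT libraries at TN lie well below it.

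In liver the genotype comparison at RT gave no member past the threshold. edgeR called 0 of 40, against 0.0853% of 17594 genes, and DESeq2 also called 0 of 40, against 1.15% of genes. At an unadjusted p under 0.05 the count was 1 of 40 (2.5%), against 10.2% of all genes. At TN, 2 members were called, C2 higher and F5 lower in KO, against 3.18% of all genes (1.34% higher, 1.85% lower). The unadjusted count there was 13 of 40 (32.5%), against 17.6% of genes, and the median log2 change of the members was 0.08, beside 0.05 over all genes. That median was 0.57 for the 15 fat-expressed members, 8 of them with an unadjusted p under 0.05. For the 25 liver-type members it was -0.06, with 5 under that p.

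C2, the protease that combines with C4b to cleave C3, was at 26.0, 17.6, 18.1 and 15.2 CPM in the WT livers at TN (replicates 1, 24, 6 and 7) and at 33.5, 28.3, 33.9 and 37.5 CPM in the KO livers (replicates 2, 22, 4 and 5). All 4 KO livers lay above all 4 WT livers. The log2 change was 0.79 (SE 0.17, adjusted p 0.0153, edgeR). F5, the cofactor of factor Xa, was at 730, 585, 641 and 553 CPM in the same WT livers and at 336, 392, 371 and 512 CPM in the KO livers. Again the groups did not overlap, with KO below. Its log2 change was -0.64 (SE 0.15, adjusted p 0.0218). The C2 call was lost without WT TN replicate 6 or 7 (adjusted p up to 0.0546), and the F5 call without KO TN replicate 2, 22 or 4 or WT TN replicate 1 or 6 (adjusted p up to 0.0846).

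Cfb, the alternative pathway counterpart of C2, which is named here after its values were seen, lies next to it on chromosome 17 (C2 at chr17:34862604-34898265 and Cfb at chr17:34856374-34862518, both on the minus strand, GRCm38). At TN it was at 7.07, 5.57, 4.46 and 5.19 CPM in WT livers and at 2.68, 4.25, 3.42 and 3.33 CPM in KO livers. At RT it was at 6.58, 5.43, 6.39 and 4.9 CPM in WT (replicates 11, 12, 15 and 18) and at 3.97, 3.7, 3.39 and 2.1 CPM in KO (replicates 10, 16, 19 and 9). KO thus lay below WT without overlap at both temperatures, but neither difference passed the test (log2 change -0.83, adjusted p 0.255 at RT and -0.70, adjusted p 0.160 at TN). C2 at RT was at 21.7, 18.0, 24.4 and 21.7 CPM in WT and at 20.9, 28.8, 31.2 and 21.9 CPM in KO, with overlap (0.26, adjusted p 0.655). A readthrough gene, Gm20547, shares 79.5% of the exon bases of Cfb and 42.8% of those of C2 in GENCODE and had no count in any library. How the counting split reads between these genes is not given in the sources used here.

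DESeq2 called 6 members between genotypes in liver at TN, against 6.31% of all genes, adding C1qa, C1qb, Cfp and C8g to the 2 above. C1qa, a chain of the C1q recognition molecule, was at 46.5, 32.7, 33.1 and 38.2 CPM in WT TN livers and at 40.6, 43.9, 77.0 and 110 CPM in KO TN livers. The range in KO came from replicates 4 and 5, and the groups overlapped. In edgeR its log2 change was 0.85 (SE 0.25, adjusted p 0.0733). The summed macrophage markers moved with it, from 208 to 244 CPM in WT TN and from 267 to 629 CPM in KO TN, and the Kupffer cell markers were at 143 to 274 and 225 to 646 CPM. Of these lists 1 of 9 macrophage markers (Lyz2, log2 change 1.21, adjusted p 0.0117) and 1 of 5 Kupffer markers (Vsig4, 1.06, adjusted p 0.0489) were called higher in KO. The part of macrophage content in the C1q values was not tested.

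**Figure D3:**
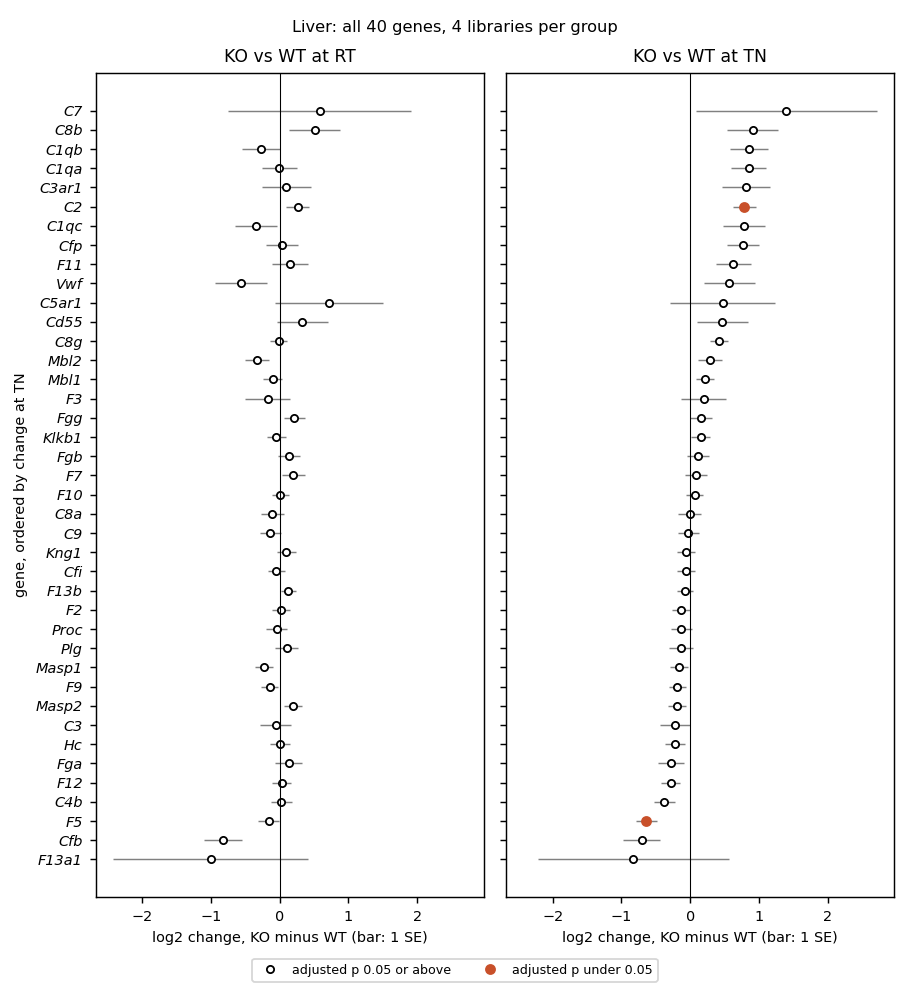
Log2 change between KO and WT livers for all 40 genes at RT (left) and TN (right), with bars of 1 SE and genes ordered by the change at TN. C2 at 0.79 and F5 at -0.64 are the 2 filled points at TN, and no point is filled at RT.

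Housing temperature gave no called member in liver. In WT edgeR called 0 of 40, against 0.0227% of genes, DESeq2 called 0, against 0.426%, and 6 of 40 (15%) had an unadjusted p under 0.05, against 7.25% of genes. In KO edgeR called 0, against 0.114%, and 8 of 40 (20%) had an unadjusted p under 0.05, against 10.5%. There 14 of the 15 fat-expressed members had a log2 change above 0 (median 0.87), and 22 of the 25 liver-type members a change below 0 (median -0.11). DESeq2 called 3 in KO (C1qa, C1qb and C1qc, all higher at TN), against 2.06% of genes. C1qa was at 37.6, 27.8, 33.1 and 36.9 CPM in KO RT livers, all below the KO TN values above, with a log2 change of 1.01 (SE 0.25, adjusted p 0.117, edgeR). These comparisons share the KO TN livers with the genotype comparison, so the same 2 high libraries enter both.

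The interaction, which asks whether the genotype effect differed between temperatures, called no member in liver by edgeR (0% of genes) or by DESeq2 (0.0966% of genes). At an unadjusted p under 0.05 there were 10 of 40 (25%), against 7.33% of genes. C1qb had the smallest p of them, with a log2 interaction of 1.14 (SE 0.39, adjusted p 0.533), and that of F5 was -0.48 (SE 0.21, adjusted p 0.645). The difference between the TN and RT effects was therefore not shown for any member. Leaving out 1 library at a time kept the count at 0.

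In liver, few other genes of the pathways were called. Of 29 other complement genes tested 1 was called between genotypes at TN (Vsig4), of 31 other coagulation genes 2, and of 10 acute phase genes 1, beside the 3.18% of all genes given above, so the complement count is at the background. Saa3, an acute phase protein, rose by 1.94 on the log2 scale (SE 0.46, adjusted p 0.0334) in KO. Serpina10, the inhibitor of factor Xa that works with protein Z, rose by 0.60 (SE 0.14, adjusted p 0.0248), and F2r, a thrombin receptor, fell by 0.70 (SE 0.15, adjusted p 0.0166). At RT none of the 3 lists had a called gene between genotypes by edgeR, though 6 of the 10 acute phase genes had an unadjusted p under 0.05 (median log2 change -0.68, beside 0.02 over all genes). Between temperatures in KO 8 of these 10 genes had an unadjusted p under 0.05 and 9 had a log2 change above 0 (median 0.81, beside 0.01 over all genes), and the 2 comparisons share the KO RT livers. Serpine2, a thrombin inhibitor of tissues, fell at TN in both genotypes, by 1.77 in WT (adjusted p 0.00134) and by 1.31 in KO (adjusted p 0.0304), and Apcs, serum amyloid P, rose by 1.11 in KO (adjusted p 0.0396). The Serpine2 fall in WT held when any 1 library was left out. The call was lost for F2r without KO TN replicate 22 or WT TN replicate 6 or 7, for Serpina10 without those or KO TN replicate 4 or WT TN replicate 24, and for Saa3 without KO TN replicate 4 or 5 or any WT TN replicate, or with no filter on low counts (adjusted p up to 0.0978). Apcs was lost without any KO RT replicate or KO TN replicate 4 or 5, and Serpine2 in KO without RT replicate 10 or 9 or TN replicate 4 or 5 (adjusted p up to 0.184). Vsig4 was lost without KO TN replicate 4 or 5 or WT TN replicate 24, 6 or 7, under RLE scaling and with no filter on low counts (adjusted p up to 0.141).

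In brown fat, C1q, C4b, Cd55 and both peptide receptors rose at TN in both genotypes. At TN against RT, 11 of 39 tested members were called in WT, 10 higher and 1 lower, and 11 in KO, all higher. The background was large: 32.5% of 18032 genes were called in WT (15.9% higher, 16.7% lower) and 15.2% in KO (6.64% higher, 8.52% lower). The share of members called, 28.2% in each genotype, was thus near the background in WT and above it in KO. At an unadjusted p under 0.05 there were 13 of 39 (33.3%) in WT, against 42.7% of genes, and 12 of 39 (30.8%) in KO, against 27.9%, so by that count the members stood below the background in WT and near it in KO. The median log2 change of the members was 1.36 in WT and 1.32 in KO, beside 0.11 and 0.04 over all genes. Of the members tested, 25 were liver-type, with medians of 1.49 and 1.38 and none called, and the fat-expressed members had medians of 1.13 and 1.26. By edgeR every called member belonged to the 15 fat-expressed genes, of which 14 were tested (Cfb, with a mean of 0.173 CPM, was not).

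The recognition genes C1qa, C1qb and C1qc rose in both genotypes. C1qc was at 5.66, 18.4, 17.7 and 12.8 CPM in WT at RT (replicates 12, 15, 17 and 18) and at 41.7, 39.4, 34.9 and 24.0 CPM in WT at TN (replicates 24, 6, 7 and 1). In KO it was at 7.22, 9.43, 8.66 and 8.83 CPM at RT (replicates 10, 14, 19 and 9) and at 21.8, 16.9, 20.8 and 32.7 CPM at TN (replicates 2, 3, 4 and 5). The TN libraries lay wholly above the RT libraries in each genotype. The log2 changes were 1.36 (SE 0.29, adjusted p 0.00212) in WT and 1.43 (SE 0.29, adjusted p 0.00344) in KO.

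C1qa and C1qb gave the same picture. C1qa was at 6.71, 23.9, 22.0 and 20.9 CPM in WT at RT and at 41.1, 46.8, 38.6 and 33.9 CPM at TN, and in KO at 8.41, 9.76, 12.4 and 14.1 CPM at RT and at 29.7, 19.9, 24.6 and 33.7 CPM at TN. C1qb was at 7.76, 27.2, 21.3 and 14.5 CPM in WT at RT and at 43.5, 52.1, 38.1 and 33.2 CPM at TN, and in KO at 10.1, 8.22, 9.22 and 14.0 CPM at RT and at 30.1, 18.6, 24.9 and 41.0 CPM at TN. No RT library reached a TN library of its genotype. The log2 changes were 1.13 (SE 0.29, adjusted p 0.00795) and 1.27 (SE 0.30, adjusted p 0.00812) for C1qa in WT and KO, and 1.24 (adjusted p 0.00776) and 1.47 (adjusted p 0.00606) for C1qb. All 6 C1q calls held when any 1 library was left out, with adjusted p values up to 0.0313.

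Both receptors for complement peptides rose as well. C3ar1 was at 1.29, 3.08, 2.16 and 1.15 CPM in WT at RT and at 8.57, 12.7, 8.17 and 6.35 CPM at TN. In KO it was at 0.987, 2.86, 2.12 and 0.475 CPM at RT and at 4.0, 4.16, 3.51 and 4.3 CPM at TN. Its log2 change of 2.22 (SE 0.44, adjusted p 9.54e-04) in WT was the largest of the called members there, and that in KO was 1.31 (SE 0.43, adjusted p 0.0471). C5ar1, the C5a receptor, was at 1.05, 2.58, 1.56 and 3.86 CPM in WT at RT and at 7.04, 6.96, 5.97 and 5.74 CPM at TN. In KO it was at 0.987, 1.21, 1.92 and 1.43 CPM at RT and at 5.46, 3.56, 4.43 and 3.8 CPM at TN. The groups of each receptor did not overlap, and C5ar1 rose by 1.51 (SE 0.345, adjusted p 0.00272) in WT and by 1.63 (SE 0.35, adjusted p 0.00376) in KO. The C5ar1 calls and the C3ar1 call in WT held when any 1 library was left out, whereas the C3ar1 call in KO was lost without any library but RT replicate 14 (adjusted p up to 0.141).

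C4b showed the largest rise of a classical pathway component. It was at 4.88, 49.6, 18.0 and 15.4 CPM in WT at RT and at 101, 96.9, 94.3 and 65.5 CPM at TN, and in KO at 17.3, 11.6, 5.21 and 20.5 CPM at RT and at 105, 37.3, 41.5 and 70.2 CPM at TN. The TN libraries lay above the RT libraries in each genotype. The log2 changes were 2.02 (SE 0.61, adjusted p 0.0229) in WT and 2.22 (SE 0.62, adjusted p 0.0284) in KO. The call was lost in WT without RT replicate 17 or 18 (adjusted p up to 0.0672) and in KO without RT replicate 10, 14 or 19 or TN replicate 2 or 5 (adjusted p up to 0.0842). The near-identical C4a can take reads from C4b, so the split between them is uncertain.

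C2 rose in KO, from 1.02, 0.624, 0.431 and 0.442 CPM at RT to 4.51, 1.46, 2.01 and 3.28 CPM at TN, with no overlap (log2 change 2.15, SE 0.53, adjusted p 0.00966), and the call held when any 1 library was left out. In WT it was at 0.305, 2.01, 1.12 and 1.72 CPM at RT and at 2.34, 1.62, 1.45 and 2.64 CPM at TN, where the groups overlapped (0.64, adjusted p 0.351). The difference between these effects was not past the threshold (interaction 1.51, SE 0.72, adjusted p 0.491). C3 was the only called member that fell. It was at 289, 495, 402 and 241 CPM in WT at RT and at 215, 193, 200 and 193 CPM at TN, where the TN libraries were close together and all below RT (log2 change -0.83, SE 0.24, adjusted p 0.0119). In KO, C3 was at 390, 376, 300 and 331 CPM at RT and at 282, 236, 148 and 362 CPM at TN, with overlap (-0.44, adjusted p 0.238). The WT call was lost without RT replicate 15 (adjusted p 0.0572).

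Among the remaining complement genes, Cd55, a membrane protein that dissociates the C3-cleaving enzymes, rose from 3.42, 7.6, 7.52 and 6.67 CPM to 20.6, 13.4, 16.5 and 14.3 CPM in WT and from 4.02, 4.92, 5.37 and 4.65 CPM to 16.7, 8.52, 11.3 and 8.36 CPM in KO. The groups did not overlap, and both calls held when any 1 library was left out. The log2 changes were 1.36 (SE 0.26, adjusted p 7.42e-04) and 1.24 (SE 0.26, adjusted p 0.00344). Cfp, properdin, which stabilizes the alternative pathway enzyme, rose by 1.01 (SE 0.36, adjusted p 0.0374) in WT, from 2.27, 8.3, 4.56 and 2.24 CPM to 9.23, 12.9, 7.21 and 5.67 CPM, with overlap through RT replicate 15. In KO it rose by 1.08 (SE 0.36, adjusted p 0.0484), from 3.81, 4.04, 3.35 and 2.41 CPM to 7.43, 6.26, 7.67 and 7.46 CPM, without overlap. C7 rose by 1.05 (SE 0.37, adjusted p 0.0352) in WT, from 2.64, 4.89, 2.72 and 2.5 CPM to 8.51, 5.66, 8.32 and 4.03 CPM, and by 1.21 (SE 0.37, adjusted p 0.0338) in KO, from 1.33, 1.8, 2.75 and 2.48 CPM to 8.71, 4.02, 3.54 and 3.05 CPM. In WT the C7 groups overlapped at RT replicate 15. These calls were the less stable ones: Cfp in WT was lost without RT replicate 12, 17 or 18 or TN replicate 24 or 6 and in KO without any 1 library (adjusted p up to 0.127 and 0.118), and C7 in WT without RT replicate 12, 17 or 18 or TN replicate 24 or 7 and in KO without RT replicate 10 or 14 or TN replicate 2 (up to 0.0959 and 0.177).

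Of the coagulation genes, Vwf was called in WT alone and F3 in KO alone. Vwf, which tethers platelets to vessel walls, was at 12.3, 11.0, 9.28 and 9.07 CPM in WT at RT and at 7.53, 32.0, 24.5 and 27.2 CPM at TN, with TN replicate 24 below all RT libraries (log2 change 1.13, SE 0.38, adjusted p 0.0317). In KO it was at 20.4, 12.4, 21.9 and 28.8 CPM at RT and at 25, 12.5, 12.0 and 11.6 CPM at TN (-0.45, adjusted p 0.492). The interaction for Vwf was -1.58 (SE 0.53, adjusted p 0.457), so a difference between the genotypes was not shown. F3, which starts coagulation when exposed to plasma, was at 28.8, 49.5, 41.0 and 54.5 CPM in KO at RT and at 63.7, 77.7, 55.2 and 73.0 CPM at TN, without overlap (log2 change 0.63, SE 0.19, adjusted p 0.0308). In WT, F3 was at 49.97, 52.1, 41.6 and 61.9 CPM at RT and at 51.6, 57.2, 82.3 and 64.0 CPM at TN, with overlap (0.31, adjusted p 0.220). The Vwf call was lost with no filter on low counts and without RT replicate 15, 17 or 18 or TN replicate 6, 7 or 1 (adjusted p up to 0.0894), and the F3 call without RT replicate 10 or 19 or TN replicate 3 or 5 (up to 0.108).

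Marker genes of other cell types moved with temperature in the same BAT libraries. Of 9 macrophage markers 8 were called higher at TN in each genotype, among them Cd68 (log2 change 1.81 in WT and 0.94 in KO) and Adgre1 (1.55 and 1.59). The summed macrophage level was 54.8 to 135.5 CPM in WT and 66.9 to 74.6 CPM in KO at RT, and 259.5 to 585 CPM in WT and 221 to 318 CPM in KO at TN. Of 6 fibroblast markers 5 were called higher in each genotype, with sums of 249 to 379 CPM in WT and 206 to 334 CPM in KO at RT and of 1007 to 1630 and 801 to 1302 CPM at TN. The endothelial sums, beside Vwf, were 161 to 486 CPM in WT and 443 to 941 CPM in KO at RT and 300 to 959 and 702 to 1205 CPM at TN, and 3 of 6 markers were called higher in WT. No defining macrophage or endothelial marker was at 0 in a BAT library. The part of cell content in the rises was not tested.

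**Figure D4:**
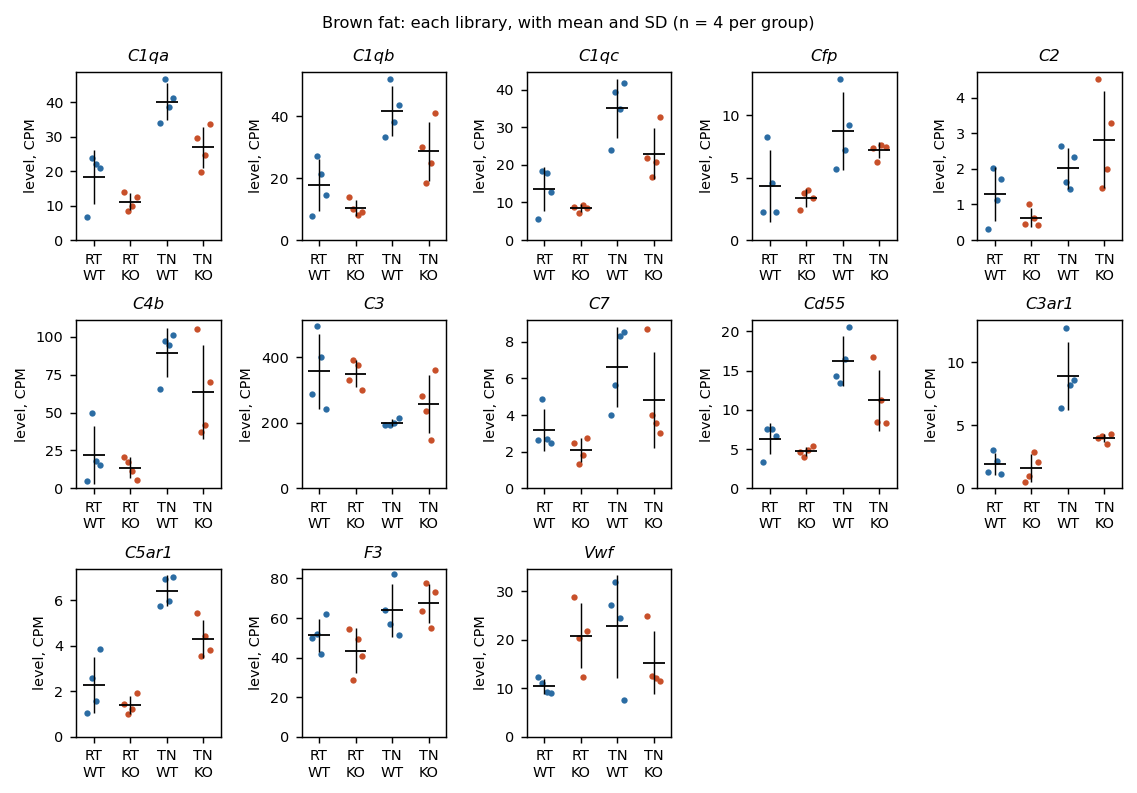
Level in CPM of the 13 genes called in BAT between TN and RT in at least 1 genotype, with each library as a point and the mean with its SD in black (n = 4 per group). C1qa, C1qb, C1qc, C4b, Cd55, C3ar1 and C5ar1 are higher at TN without overlap in each genotype, and C3 is lower at TN in WT.

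The liver-type members were not called in BAT by edgeR in either genotype, although 24 of 25 had a log2 change above 0 at TN in WT and 25 of 25 in KO (median SE 1.47 and 1.45). Alb differed between these libraries as described above, from 2.73 to 437 CPM at RT and from 13.1 to 1700 CPM at TN. Masp1 was at 0.339, 0.469, 0.48 and 0.208 CPM in WT at RT and at 0.839, 1.56, 3.59 and 1.39 CPM at TN, without overlap (log2 change 2.28, SE 1.02, adjusted p 0.0985). DESeq2 called Masp1 and Masp2 in WT in addition to the 11 members above, against 36.8% of genes, and 11 members in KO, against 19.1%. Tardbp, on the opposite strand, shares 54.9% of the exon bases of Masp2 in GENCODE and had counts in all 48 libraries. How the counting treated their shared reads is not given, so the Masp2 values are uncertain in every tissue.

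Genotype moved no member of brown fat past the threshold. At RT edgeR called 0 of 39, against 0.0887% of genes, and DESeq2 called 0, against 5.44%, while 5 of 39 (12.8%) had an unadjusted p under 0.05, against 19.4% of genes. At TN both tools called 0 (0% and 0.111% of genes), and 1 of 39 (2.56%) had an unadjusted p under 0.05, against 5.24%. Vwf at RT had the KO libraries, listed above, wholly above the WT libraries (log2 change 1.00, SE 0.38, adjusted p 0.176), beside the higher endothelial sums of KO. C3ar1 at TN had the KO libraries wholly below WT (-1.17, SE 0.42, adjusted p 0.819). Without WT RT replicate 12, which had the lowest C1q values at RT, 4 members were called between genotypes at RT (C1qa, C1qb, C1qc and F13a1), beside 1979 of 18710 genes in that fit, a share near that of the members. The interaction called 0 by edgeR (0%) and by DESeq2 (0.116%), with 1 of 39 (2.56%) at an unadjusted p under 0.05, against 10.2% of genes, so the temperature effects described for WT and KO were not shown to differ.

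Other genes of the pathways were called between temperatures in brown fat in both directions. Of 25 other complement genes tested 11 were called in WT, 8 of them higher, and 10 in KO, 7 higher. Of 32 other coagulation genes 10 were called in WT, 9 higher, and 8 in KO, all higher. The acute phase list had 1 of 10 genes called in each genotype, lower at TN. Yet 7 of its genes in WT and 8 in KO had a log2 change above 0 (medians 1.30 and 1.24). Beside the 32.5% of all genes called in WT and 15.2% in KO, the coagulation count in WT is near the background. Itgax, a chain of complement receptor 4, rose by 2.97 (SE 0.63, adjusted p 0.00162) in WT and by 2.48 (SE 0.62, adjusted p 0.0108) in KO. In WT Itgb2, its partner chain, rose by 2.51 (adjusted p 5.83e-05) and Clu, clusterin, an inhibitor of the membrane pore, by 2.51 (adjusted p 9.16e-04). In KO the thrombin receptor F2rl3 rose by 4.15 (SE 0.68, adjusted p 4.99e-04). Cd59b, which blocks pore assembly, fell by 1.51 (adjusted p 5.05e-05) in WT and by 0.63 (adjusted p 0.0422) in KO, C1rl, a C1r-like protease, fell by 1.35 and by 1.31 (adjusted p 1.77e-05 and 3.91e-05), and the acute phase gene Orm1 fell by 1.98 and by 1.80 (adjusted p 3.81e-04 and 0.00178). The fall of Cd59b in KO was lost when any 1 library was left out, under RLE scaling and with no filter on low counts (adjusted p up to 0.154).

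In epididymal fat the genotype comparison called 3 of 40 members at RT and 3 at TN, all lower in KO. At RT 4.34% of 18933 genes were called (1.2% higher, 3.13% lower), so 3 of 40 is near the background, and at TN 0.586% (0.174% higher, 0.412% lower). C3ar1 and C5ar1 were called at both temperatures, C4b at RT and C1qb at TN. DESeq2 called 5 at RT (7.97% of genes), adding Cfb and Masp1, and 6 at TN (3.57% of genes), adding C1qa, C1qc and C2. At an unadjusted p under 0.05 there were 10 of 40 (25%) at each temperature, against 17.7% of genes at RT and 13.7% at TN.

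C3ar1 was at 15.5, 24.6, 31.7 and 28.9 CPM in WT at RT (replicates 12, 13, 15 and 18) and at 13.0, 10.6, 13.4 and 13.6 CPM in KO at RT (replicates 10, 16, 19 and 9). At TN it was at 42.4, 64.2, 46.3 and 23.9 CPM in WT (replicates 23, 6, 7 and 8) and at 21.3, 18.1, 22.4 and 19.3 CPM in KO (replicates 21, 3, 4 and 5). The KO libraries were close together and lay below WT at both temperatures. The log2 changes were -0.99 (SE 0.24, adjusted p 0.0275) at RT and -1.13 (SE 0.24, adjusted p 0.0441) at TN. C5ar1 was at 17.5, 13.8, 16.1 and 22.4 CPM in WT and at 9.7, 13.4, 8.57 and 11.0 CPM in KO at RT, and at 29.4, 37.0, 32.8 and 21.9 CPM in WT and at 16.8, 14.7, 14.1 and 19.1 CPM in KO at TN. It too lay lower in KO without overlap, with log2 changes of -0.71 (SE 0.19, adjusted p 0.0372) at RT and -0.91 (SE 0.185, adjusted p 0.0401) at TN. The RT calls were lost without 7 of the 8 libraries for C3ar1 (all but WT replicate 12) and without 6 for C5ar1 (all but WT replicate 13 and KO replicate 16), and both TN calls without any library but WT replicate 8, with adjusted p values up to 0.188. With no filter on low counts C3ar1 at TN was not called either.

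C4b at RT was at 717, 1153, 1276 and 1706 CPM in WT and at 405, 676, 415 and 571 CPM in KO, with no overlap (log2 change -1.23, SE 0.26, adjusted p 0.0136). At TN it was at 2307, 2176, 2159 and 1403 CPM in WT and at 1391, 1465, 1584 and 850 CPM in KO, where the groups overlapped (-0.61, SE 0.25, adjusted p 0.299). The RT call was lost without KO replicate 10 or 19 or WT replicate 18, the library with the epididymis markers (adjusted p up to 0.0587). C1qb at TN was at 233, 289, 233 and 171 CPM in WT and at 128, 135, 154 and 133 CPM in KO, again without overlap (-0.75, SE 0.16, adjusted p 0.0435). C1qa and C1qc lay lower in KO without overlap at TN as well (-0.66, adjusted p 0.0631 and -0.56, adjusted p 0.0591). The C1qb call was lost without any library but WT replicate 8, with adjusted p values up to 0.197, and without WT replicate 8 there were 5 called members at TN, with C1qa and C1qc added, beside 238 of 19637 genes in that fit.

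The neighbours C2 and Cfb, named here after their values were seen, lay on opposite sides of WT in KO eWAT by their means. C2 was at 16.4, 17.3, 14.7 and 18.8 CPM in WT and at 34.9, 19.4, 19.7 and 21.8 CPM in KO at RT, and at 21.5, 15.9, 23.5 and 17.4 CPM in WT and at 31.5, 27.4, 27.2 and 41.0 CPM in KO at TN. KO lay above WT without overlap at both temperatures, but edgeR did not call it (log2 change 0.51, adjusted p 0.144 at RT and 0.70, adjusted p 0.0901 at TN). Cfb was at 1.33, 3.11, 2.13 and 4.72 CPM in WT and at 0.749, 1.34, 0.99 and 1.27 CPM in KO at RT, and at 3.2, 7.02, 6.2 and 2.63 CPM in WT and at 2.49, 3.99, 3.5 and 1.42 CPM in KO at TN. Its groups overlapped at both temperatures (-1.37, adjusted p 0.0816 at RT and -0.74, adjusted p 0.463 at TN). Of the liver-type members, F7 at TN was at 2.88, 9.52, 7.03 and 2.07 CPM in WT and at 1.17, 1.23, 1.08 and 0.632 CPM in KO, without overlap (-2.38, SE 0.99, adjusted p 0.303).

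The macrophage markers stood lower in KO in the same libraries. Their sum was 890 to 1245 CPM in WT and 651.5 to 881 CPM in KO at RT. At TN it was 1359 to 2296 CPM in WT and 1094 to 1267 CPM in KO. These sums, on plain library totals, did not overlap at either temperature. At RT the groups nearly met (889.6 CPM in the lowest WT library against 880.9 CPM in the highest KO library). At RT 2 of 9 markers were called lower in KO (Cd68, log2 change -0.87, adjusted p 0.0485, and Ctss, -0.97, adjusted p 0.0367), and at TN 1 (Ctss, -1.18, adjusted p 0.0448). No macrophage marker was at 0 in an eWAT library. The part of macrophage content in the lower receptor and C1q values was not tested.

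**Figure D5:**
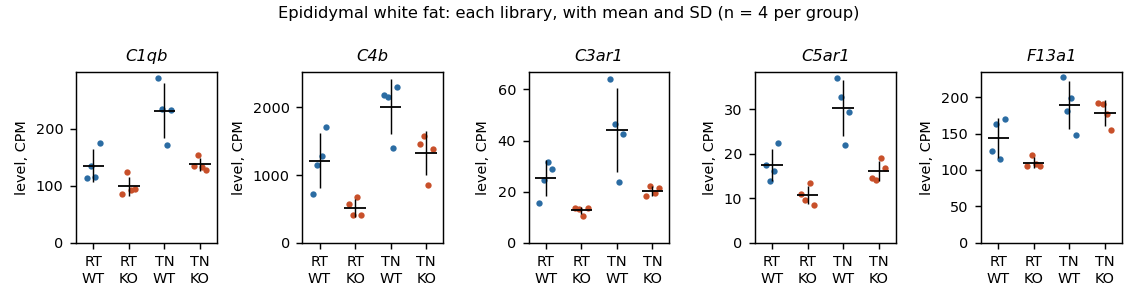
Level in CPM of the 5 genes called in eWAT in a genotype or temperature comparison, with each library as a point and the mean with its SD in black (n = 4 per group). C3ar1 and C5ar1 are lower in KO than in WT at each temperature, and F13a1 and C4b are higher at TN than at RT in KO.

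Temperature called no member in WT eWAT by edgeR (0% of genes), while DESeq2 called 5 (C1qa, C1qb, C1qc, C5ar1 and Cfp, all higher at TN), against 0.528% of genes, and 9 of 40 (22.5%) had an unadjusted p under 0.05, against 7%. In KO 2 members were called, both higher at TN, against 1.74% of genes (1.02% higher, 0.718% lower), and 18 of 40 (45%) had an unadjusted p under 0.05, against 17.5% of genes. Of those 18, 8 were liver-type members, none of them called. C4b rose from the RT to the TN values given above, by 1.36 (SE 0.26, adjusted p 0.022) with no overlap. F13a1, whose product cross-links fibrin, was at 121, 108, 105 and 105 CPM in KO at RT and at 154, 192, 191 and 176 CPM at TN, a rise of 0.70 (SE 0.14, adjusted p 0.0235) with no overlap. In WT it was at 126, 163, 115 and 171 CPM at RT and at 148, 228, 180 and 199 CPM at TN (0.40, adjusted p 0.503). The KO calls were lost without RT replicate 10 or 19 or TN replicate 3 or 4, and C4b also without TN replicate 21 (adjusted p up to 0.105). Of 9 macrophage markers 3 were called higher at TN in KO (Csf1r, Mrc1 and Cd163, log2 changes 0.67, 0.63 and 0.88).

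The liver-type members in KO eWAT all lay lower at TN than at RT, with 25 of 25 log2 changes below 0 and a median of -2.98 (median SE 1.52), and edgeR called none of them. Alb went from 609, 3109, 1272 and 73.1 CPM in KO at RT to 168, 199, 321 and 46.4 CPM at TN, with overlap through RT replicate 9. Mbl2, a mannose-binding lectin, was at 2.89, 18.3, 7.82 and 1.11 CPM at RT and at 0.439, 0.456, 0.755 and 0 CPM at TN, a log2 change of -4.16 (SE 1.61, adjusted p 0.198). F12, which starts the contact pathway, was at 2.59, 18.5, 5.16 and 1.3 CPM at RT and at 0.585, 0.912, 1.13 and 0.0632 CPM at TN (-3.34, SE 1.43, adjusted p 0.248). Both groups were free of overlap, and the part of liver RNA in them was not tested. Cfb, a fat-expressed gene, lay higher at TN in KO, at 2.49, 3.99, 3.5 and 1.42 CPM against 0.749, 1.34, 0.99 and 1.27 CPM (1.39, SE 0.43, adjusted p 0.105). DESeq2 called 6 members in this comparison (6.1% of genes), adding Cfb, C8g, Klkb1 and Masp2. The interaction in eWAT called 0 of 40 by edgeR (0% of genes) and by DESeq2 (0.0634%), with 0 of 40 (0%) at an unadjusted p under 0.05, against 7.61% of genes.

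Other genes of the pathways differed between genotypes in eWAT as well. At RT 5 of 29 other complement genes were called, 1 of them higher in KO, and 5 of 34 other coagulation genes, 2 higher, beside 4.34% of all genes (1.2% higher, 3.13% lower). Cfd, adipsin, the factor D that activates Cfb, was higher in KO, at 6093 ± 1095 CPM (SD, n = 4) against 1847 ± 383 CPM (log2 change 1.72, SE 0.42, adjusted p 0.0315), without overlap. Tfpi, the inhibitor of the tissue factor pathway, rose by 1.07 (SE 0.16, adjusted p 0.00223) at RT and by 0.77 (SE 0.16, adjusted p 0.0401) at TN, and Thbd, thrombomodulin, the cofactor of protein C activation, by 1.07 (SE 0.28, adjusted p 0.0473) and by 1.58 (SE 0.29, adjusted p 0.0401). At RT Itgax fell by 2.16 (SE 0.43, adjusted p 0.0115) and Tfpi2, an inhibitor of serine proteases, fell by 1.79 (SE 0.43, adjusted p 0.0264). Tfpi and Itgax at RT held when any 1 library was left out, whereas Cfd was lost without 7 of 8 libraries (all but KO replicate 16, adjusted p up to 0.105) and Thbd without 7 (all but WT replicate 12, up to 0.123). With no filter on low counts Cfd, Thbd and Tfpi2 at RT were not called either. Tfpi2 at RT was lost without KO replicate 10, 19 or 9 or WT replicate 13, 15 or 18 (adjusted p up to 0.0846). At TN, Tfpi was lost without any library but WT replicate 8, and Thbd without KO replicate 21, 3 or 5 or WT replicate 6 or 7 (adjusted p up to 0.176). In KO at TN against RT, Serping1, the C1 inhibitor, rose by 0.93 (SE 0.18, adjusted p 0.0235) and Pros1, protein S, by 0.63 (SE 0.155, adjusted p 0.045). Both were lost without RT replicate 10 or 19 or TN replicate 21, 3 or 4, and Pros1 also without RT replicate 9 (adjusted p up to 0.177).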

How the data were processed

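RNA of 48 snap-frozen tissue samples (12 groups of 4) was sequenced as paired ends, per the labels' protocols. The deposited values are raw counts per Ensembl gene and library. The submitters' processing notes name fastp, STAR 2.6.1d and featureCounts 1.5.0-p3 and the builds GRCm38 and mm10. The annotation release and the strand setting are not given in the sources used here, so reads of overlapping genes cannot be assigned by strand. Nothing states whether the replicates are separate animals beyond their label, and p-values set differences between groups against the spread between these samples.

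Symbols, exon lengths and gene positions came from GENCODE vM21 (GRCm38) and promoters from RefSeq (GRCm38.p6). Within each tissue, genes were kept by filterByExpr (minimum count 10), scaled by TMM and tested in edgeR 4.0.16 (R 4.3.3, limma 3.58.1) with the quasi-likelihood test over the 4 groups and no covariate, with a threshold of 0.05 on the Benjamini-Hochberg adjusted p. Tissues were compared in 1 fit over all 48 libraries, taken as independent. Each SE was derived from the test, as the absolute log2 change divided by the square root of the quasi-likelihood F. The fit was tried on simulated data only for TN against RT in WT BAT, with the same spread setting for every gene. Changes were simulated only in genes with higher counts, so low genes and the other comparisons were not covered. Other CPM values are TMM-scaled within each tissue. Marker sums, Alb levels and the shares of liver compared with the Alb share use plain library totals. So does the C8g level of 8.87 CPM. The members and the gene lists were chosen with earlier results of these data known.

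Every library value is given for a member that was called, or whose groups did not overlap with a mean of at least 1 CPM and a log2 change of at least 1. From the pathway lists up to 3 called genes per direction with the largest change were named. Some results of this rule are not reported here. Alternatives were RLE scaling, no filter, DESeq2 1.42.0, leaving out each library in turn, a replicate block between tissues, and plain totals for levels. Of the 9 hepatocyte markers matched and the other marker lists, sums are given only beside results. Counts below about 3 per library carry little information, and precision for low genes is limited by counting. The gene C4b has the paralog C4a, and Kng1 has Kng2, so their counts are uncertain where reads match both.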

Additional observations from a re-analysis of the deposited data

Results flagged for a closer look

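Of 63 groups of 4 libraries examined for the called members, 2 held a library far from the other 3, where chance flags about 1 in 20 groups. C7 in BAT stood at 4.89 CPM in WT RT replicate 15, while the other 3 libraries of the group lay between 2.5 and 2.72 CPM. Cfp in BAT stood at 6.26 CPM in KO TN replicate 3, below the other 3 libraries at 7.43 to 7.67 CPM.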

How the results depend on the processing

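Over the alternatives run, none of the 61 gene results reversed its direction, 477 gene values kept their side of the threshold and 194 lost the call. DESeq2 called more members in 7 comparisons: 13 between temperatures in WT BAT, 6 between genotypes in liver at TN, 3 between temperatures in KO liver, 5 and 6 between genotypes in eWAT at RT and TN, and 5 and 6 between temperatures in WT and KO eWAT. The cause was not tested. Leaving out 1 library at a time gave 0 to 3 called members between genotypes in liver at TN, 0 to 2 between temperatures in KO liver, 0 to 4 between genotypes in BAT at RT, 7 to 12 and 6 to 9 between temperatures in WT and KO BAT, 0 to 3 and 0 to 5 between genotypes in eWAT at RT and TN, and 0 to 1 and 0 to 2 between temperatures in WT and KO eWAT. The lowest counts in BAT came without WT RT replicate 17 and without KO RT replicate 10. The liver calls in KO between temperatures (C1qa and C1qb) came without TN replicate 2 or 22. RLE scaling and no filter kept every count of members within 1.5 times. Under plain totals 466 of 480 group means stayed within 1 SD, and the largest ratio was 1.31.

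Between tissues, the replicate block gave 40 called members for eWAT against liver, 39 for BAT against liver and 18 for eWAT against BAT, where F10 and F5 were lost. The numbers are shared across tissues but not between genotypes or temperatures, and whether equal numbers mark the same mouse is not stated. The 35 same-numbered pairs had a median correlation of 0.024 between their deviations from the group means (-0.49 to 0.164). The 157 differently numbered pairs had a median of -0.006 (-0.492 to 0.497). These correlations cannot decide the question, because different tissues of a mouse need not deviate alike. The main fit between tissues took all libraries as independent, so its p-values do not allow for shared mice. No paired analysis was possible within a tissue because the groups compared share no replicate number.

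With 4 libraries a group, a change of a low gene or of a liver-type gene in fat, whose median SE was 1.41 to 1.52 on the log2 scale, was not detectable unless large.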
